A study of Mus musculus with 6 samples.

Results

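The genes described here encode the calcium release machinery of the skeletal muscle triad: the ryanodine receptors *Ryr1* and *Ryr3*, the voltage sensor subunits *Cacna1s*, *Cacnb1* and *Cacng1*, the adaptor *Stac3*, the junctophilins *Jph1* and *Jph2*, and the junctional proteins *Trdn* and *Jsrp1*. They were chosen by name for their role in excitation-contraction coupling, and all 10 were found among the 46078 genes of the count table. Expression was compared between *Hnrnpa2b1* knockout (KO) and wild type (WT) C2C12 cells, an immortalized mouse myoblast line, after serum withdrawal with ITS supplementation for 2 days, in 3 libraries of each genotype, named KO1, KO2, KO3, WT1, WT2 and WT3. Where 3 values are given for a genotype, they stand in that order. KO cells had been made by CRISPR-Cas9 with one guide RNA against *Hnrnpa2b1*, which encodes an RNA-binding protein. In the study's methods, independent clones, 3 in number for KO and WT, were picked after puromycin selection, and which clone gave each library is not given in the sources used here. The p-values measure the spread between these libraries, and the part of differences between clones in it was not tested. After 2 days such cultures hold myotubes beside unfused myoblasts, and no adult fibre with mature triads is part of the comparison. The study reports that WT cells had by then largely become multinucleated myotubes, whereas KO cells failed to form large ones. The part of this difference between the cultures in the levels below was not tested.

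In a muscle fibre, depolarization of the transverse tubule moves the voltage sensor of the L-type calcium channel, which opens ryanodine receptors on the facing sarcoplasmic reticulum. Both membranes are held together by junctophilins, and the release channel is tied to the calcium buffer calsequestrin in the reticulum lumen by triadin and junctin. *Stac3* encodes an adaptor needed for the channel to reach the membrane and for coupling, and *Jsrp1* (JP-45) encodes a protein of the reticulum membrane that binds both the voltage sensor and calsequestrin. These genes are switched on during myoblast differentiation.

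The RefSeq promoter table (GRCm38.p6, 250 bases before to 50 after a transcript start) held 4 of the 10 members, *Ryr1*, *Cacna1s*, *Cacnb1* and *Jph2*, in 6 entries. They span the release channel, the voltage sensor and the membrane tether, and are shown because the E-box, CANNTG, is the recognition sequence of the myogenic factors Myod1 and Myog. Each sequence reads 5′ to 3′ on the gene's strand, with E-boxes in capitals.
*Cacna1s*, chr1:136052561-136052860, plus strand: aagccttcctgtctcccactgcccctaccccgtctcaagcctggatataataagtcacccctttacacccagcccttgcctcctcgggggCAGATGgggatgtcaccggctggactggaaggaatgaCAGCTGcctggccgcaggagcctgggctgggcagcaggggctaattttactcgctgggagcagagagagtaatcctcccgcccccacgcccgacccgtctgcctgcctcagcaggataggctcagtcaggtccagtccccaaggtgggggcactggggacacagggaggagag
*Jph2*, chr2:163397944-163398243, minus strand: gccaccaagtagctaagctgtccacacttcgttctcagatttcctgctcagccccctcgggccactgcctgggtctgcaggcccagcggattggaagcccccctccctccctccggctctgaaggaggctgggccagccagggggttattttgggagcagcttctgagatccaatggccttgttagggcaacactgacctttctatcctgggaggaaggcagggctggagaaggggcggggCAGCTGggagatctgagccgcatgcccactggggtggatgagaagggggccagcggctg
*Cacnb1*, chr11:98022578-98022877, minus strand: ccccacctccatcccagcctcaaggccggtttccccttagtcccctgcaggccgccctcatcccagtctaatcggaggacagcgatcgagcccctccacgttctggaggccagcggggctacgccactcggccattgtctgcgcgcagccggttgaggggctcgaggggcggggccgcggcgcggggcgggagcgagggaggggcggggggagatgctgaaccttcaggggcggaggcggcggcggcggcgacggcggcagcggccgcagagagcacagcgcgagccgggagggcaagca
*Ryr1*, chr7:29125102-29125401, minus strand: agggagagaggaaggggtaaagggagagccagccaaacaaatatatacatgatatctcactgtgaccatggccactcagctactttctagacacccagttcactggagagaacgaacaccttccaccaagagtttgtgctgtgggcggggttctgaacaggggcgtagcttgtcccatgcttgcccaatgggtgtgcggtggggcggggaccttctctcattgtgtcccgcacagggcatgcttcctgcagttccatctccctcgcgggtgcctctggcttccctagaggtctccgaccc
The *Cacna1s* window held 2 E-boxes, at −160 and −123 from the transcript start, and 1 of them read CAGCTG. It also held 1 match to the M-CAT element CATTCC, and its start lay 61 bases inside the deposited gene. The *Jph2* window held 1 E-box, at −9, which also read CAGCTG. The second *Jph2* entry starts 20 bases further into the gene and holds that E-box at −29. No E-box was found in the *Ryr1* window or in the *Cacnb1* window shown, whose start lies 407 bases inside the deposited gene, and the second *Cacnb1* entry held 1, at −27. The motifs were searched on both strands, and CAGCTG is one form of CANNTG, so that these matches overlap. No match to the MEF2 or CArG motif was found in the 6 entries. Among 32851 promoters of the same length, 72.3% held an E-box, 16.3% held CAGCTG, 14.7% the M-CAT element, 3.19% the MEF2 motif and 1.63% the CArG motif. A match is a description of letters and not a measured binding site.

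The libraries held 33605258 to 40558740 counted reads. *Hnrnpa2b1*, on chromosome 6 from 51460434 to 51469894, was at 159, 195 and 248 CPM (counts relative to the library total after TMM scaling) in KO and at 225, 229 and 252 CPM in WT. Its log2 fold change was −0.23 ± 0.18 (SE; edgeR's quasi-likelihood test, adjusted p = 0.381), the genotypes overlapped, and its RNA level therefore did not separate the labels. Per transcript length it was at 29.5, 38.0 and 59.9 TPM in KO and at 56.6, 57.4 and 58.0 TPM in WT. KO1 and KO2 were thus below and KO3 above the WT range. The study's methods state that the knockout of the clones was checked at the protein level, by immunofluorescence and Western blotting. Muscle genes used as markers of the labelled cells (*Myog*, *Des*, *Myh3*, *Ckm*) were read in all 6 libraries, the lowest at 245 CPM for *Ckm* in KO3. KO1 stood apart from KO2 and KO3 for *Cacnb1*, *Cacng1*, *Jph1*, *Jph2* and *Trdn*, and values without KO1 are given beside the differences that moved with it.

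Of the 10 triad genes, 9 had a lower mean level in KO by the fitted log2 fold change, and *Stac3* alone passed the threshold of 0.05 for the adjusted p (edgeR, 3 against 3 libraries). Across all 14828 genes tested, 10.6% were called lower in KO and 12.1% higher, so that 1 of 10 is near the background. None of the 10 was called higher by edgeR, DESeq2 or limma, and at an unadjusted p under 0.05 edgeR gave 4 lower and 0 higher, beside 18.5% lower and 20.5% higher of all genes tested. The median log2 fold change of the 10 was −0.41, beside 0.03 for all genes tested, and it was −0.81 without KO1. DESeq2 called 3 lower (*Cacng1*, *Stac3* and *Jph1*), beside 11.7% of the genes it tested. In TPM (a measure that corrects for transcript length), limma on log2(TPM + 1) called 4 lower (*Cacng1*, *Stac3*, *Jph1* and *Trdn*), beside 11.9%. All 10 passed the filter on low counts in both measures. Without KO1, edgeR called 6 lower (*Cacnb1*, *Cacng1*, *Stac3*, *Jph1*, *Jph2* and *Trdn*), beside 15.1% of all genes lower and 15.5% higher in the same fit. Without WT1 or without WT3 it called 0, with 3 lower at an unadjusted p under 0.05 in both cases, and the share of all genes called lower was then 3.05% and 4.4%. The count of calls thus turned on which libraries entered the fit, and the values of each gene are given below.

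**Figure D1:**
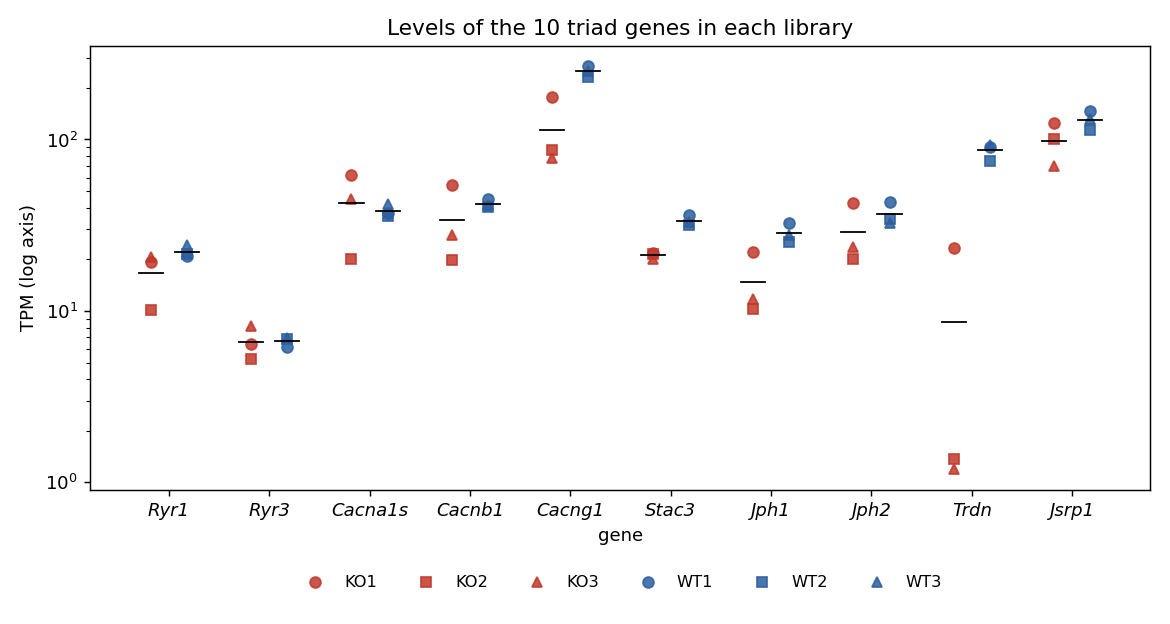
TPM (vertical axis, log scale) of each of the 10 triad genes in the 3 KO libraries (red) and the 3 WT libraries (blue), with the group mean as a black line. *Trdn* is at 1.19 and 1.38 TPM in KO3 and KO2, below the 75.0 to 93.4 TPM of WT, and KO1 (circles) lies above KO2 and KO3 for most genes.

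The pore-forming subunit of the voltage sensor, *Cacna1s* (ENSMUSG00000026407, chromosome 1 from 136052750 to 136119822, GRCm38), was not lower in KO. Its levels were 523, 159 and 308 CPM in KO and 280, 266 and 342 CPM in WT. KO1 was above, KO2 below and KO3 within the range of WT, so the genotypes overlapped on both sides. The log2 fold change was 0.16 ± 0.37 (SE; edgeR, adjusted p = 0.782), and without KO1 its sign turned to −0.35 (adjusted p = 0.348). In TPM the gene stood at 62.2, 20.02 and 45.2 in KO and at 37.3, 35.9 and 41.9 in WT, with a log2 difference of 0.01.

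*Cacnb1* (chromosome 11 from 98001508 to 98023034) encodes the intracellular beta subunit that binds the pore-forming subunit. It was read at 207, 76.8 and 80.8 CPM in KO and at 166, 143 and 169 CPM in WT. KO1 exceeded all WT libraries, whereas KO2 and KO3 were about 2-fold below the WT mean (2.07-fold and 1.97-fold). Its log2 fold change was −0.39 ± 0.36 (SE; edgeR, adjusted p = 0.464), and −1.02 without KO1 (adjusted p = 0.00177). In contrast, it was −0.15 without KO2 (adjusted p = 0.790) and −0.16 without KO3 (adjusted p = 0.802).

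The gamma subunit gene *Cacng1* (chromosome 11 from 107703218 to 107716522) encodes a membrane protein of the skeletal muscle channel. It had 360, 168 and 126 CPM in KO and 482, 408 and 492 CPM in WT, so that all KO libraries were below all WT libraries. The WT mean was 1.28, 2.74 and 3.66 times the level of KO1, KO2 and KO3. Its log2 fold change of −1.08 ± 0.36 (SE) missed the threshold in edgeR (adjusted p = 0.0660), and it was −1.65 without KO1 (adjusted p = 0.000837). With any other library left out it lay between −1.17 and −0.80 and was not called (edgeR, adjusted p from 0.0999 to 0.176). Per length, at 177, 87.4 and 77.9 TPM in KO and 268, 232 and 251 TPM in WT, the log2 difference was −1.22 ± 0.29 (SE; limma, adjusted p = 0.0198). That TPM call was lost without KO3 (adjusted p = 0.0605), without WT1 (0.0963), without WT3 (0.0677) and with no filter on low TPM (0.106).

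*Stac3* (chromosome 10 from 127501686 to 127508823), the adaptor of the channel, was the member whose KO libraries lay closest together in TPM. Its levels were 55.6, 53.3 and 39.4 CPM in KO and 82.4, 72.8 and 84.3 CPM in WT. The lowest WT library was 1.31 times the highest KO library, and KO1 was nearly as low as KO2 here. *Stac3* fell by 0.69 ± 0.16 on the log2 scale (SE; edgeR, adjusted p = 0.0200), a 1.62-fold lower level. In TPM it was 21.8, 21.4 and 20.03 in KO and 36.4, 31.8 and 32.8 in WT, and the log2 difference was −0.65 ± 0.14 (SE; limma, adjusted p = 0.0132). The count call was lost without WT1 (adjusted p = 0.0878) and without WT3 (0.0695), and the TPM call without WT1 (0.0876), with log2 fold changes from −0.79 to −0.55 in the counts over all single libraries left out. An exact permutation test of 3 libraries against 3 cannot go below p = 0.1, the value it gave for *Stac3*, *Cacng1* and *Trdn* (two-sided).

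Of the release channels, *Ryr1* (chromosome 7 from 29003340 to 29125151), the receptor opened by the voltage sensor, was at 457, 227 and 384 CPM in KO and at 438, 438 and 553 CPM in WT. KO1 was within the WT range, KO3 was below it, and KO2 was 2.10-fold below the WT mean. The log2 fold change was −0.42 ± 0.26 (SE; edgeR, adjusted p = 0.266). It was −0.65 without KO1 (adjusted p = 0.0743) and −0.18 without KO2 (adjusted p = 0.521). In TPM the 3 KO libraries (19.3, 10.1 and 20.6) were all below the WT libraries (20.8, 21.4 and 24.3), KO3 by a small margin, and the log2 difference of −0.45 was not called (limma, adjusted p = 0.221).

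*Ryr3* (chromosome 2 from 112631355 to 113217096) encodes a second ryanodine receptor, which does not respond directly to the voltage sensor and is expressed in developing muscle. In the counts it showed the smallest difference by size of the 10 genes, with 117, 88.0 and 120 CPM in KO and 97.3, 110 and 123 CPM in WT. KO1 and KO3 lay inside the WT range and KO2 just below it. Its log2 fold change was −0.02 ± 0.16 (SE; edgeR, adjusted p = 0.934) and 0.09 when the counts were scaled by library totals. The gene *Aven*, on the opposite strand, overlaps it at a mean of 7.72 CPM, and whether the reads were counted by strand is not given in the sources used here. The heart receptor *Ryr2* had at most 10 counts in a library.

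Among the junctophilins, *Jph1* (chromosome 1 from 16964560 to 17097889) had 156, 68.1 and 65.3 CPM in KO and 202, 154 and 189 CPM in WT. KO1 just overlapped the lowest WT library, and KO2 and KO3 were 2.67-fold and 2.78-fold below the WT mean. Its log2 fold change was −0.92 ± 0.33 (SE; edgeR, adjusted p = 0.0820), and −1.45 without KO1 (adjusted p = 0.000723). With any other library left out it lay between −1.03 and −0.70 and was not called (edgeR, adjusted p from 0.106 to 0.220). In TPM, at 22.1, 10.2 and 11.7 in KO and 32.4, 25.1 and 27.7 in WT, the groups did not overlap and *Jph1* fell by 0.98 ± 0.26 on the log2 scale (SE; limma, adjusted p = 0.0315). That call was lost when any library other than KO1 was left out, with adjusted p from 0.0523 to 0.14, and with no filter on low TPM (0.135).

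*Jph2* (chromosome 2 from 163336242 to 163397993) was at 294, 131 and 130 CPM in KO and at 267, 205 and 219 CPM in WT. KO1 was the highest of all 6 libraries, and KO2 and KO3 were nearly equal and below WT. The log2 fold change was −0.32 ± 0.32 (SE; edgeR, adjusted p = 0.499), and −0.83 without KO1 (adjusted p = 0.00737). In contrast, it was −0.12 without KO2 (adjusted p = 0.812) and −0.11 without KO3 (adjusted p = 0.845). The 89 tested genes within 5 Mb on either side of *Jph2* had a median log2 fold change of 0.57, higher in KO. For the other 9 members the medians of such neighbours lay between −0.26 (*Trdn*) and 0.13 (*Cacng1*). The part of this regional difference in the level of *Jph2* was not tested.

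Of the junctional proteins, triadin showed the widest difference of the 10 genes. *Trdn* (chromosome 10 from 33083483 to 33476709) was at 177, 9.63 and 7.32 CPM in KO and at 606, 495 and 677 CPM in WT, with 421 and 300 counted reads in KO2 and KO3 against 16244 or more in each WT library. All KO libraries were below all WT libraries, but by very unequal amounts. The WT mean was 3.35 times the level of KO1, 61.5 times that of KO2 and 81.0 times that of KO3. The log2 fold change was −3.20 ± 1.13 (SE), and with this spread within KO it was not called in edgeR (adjusted p = 0.0774). Without KO1 it was −6.13 ± 0.26 (adjusted p = 1.30e-05). With any other library left out it lay between −3.33 and −2.66 and was not called (edgeR, adjusted p from 0.119 to 0.170). In TPM, at 23.3, 1.38 and 1.19 in KO and 90.6, 75.0 and 93.4 in WT, *Trdn* fell by 4.12 ± 0.78 on the log2(TPM + 1) scale (SE; limma, adjusted p = 0.00917), a call lost without WT1 (0.0540) and with no filter on low TPM (0.0848).

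*Jsrp1* (chromosome 10 from 80808496 to 80813498) had 224, 174 and 101 CPM in KO and 235, 184 and 232 CPM in WT. KO1 lay within the WT range, KO2 just below it, and KO3 was the lowest, 2.16-fold below the WT mean. The log2 fold change was −0.39 ± 0.27 (SE; edgeR, adjusted p = 0.329). It was −0.67 without KO1 (adjusted p = 0.0673) and −0.12 without KO3 (adjusted p = 0.677), and it was not called under any of the alternatives.

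**Figure D2:**
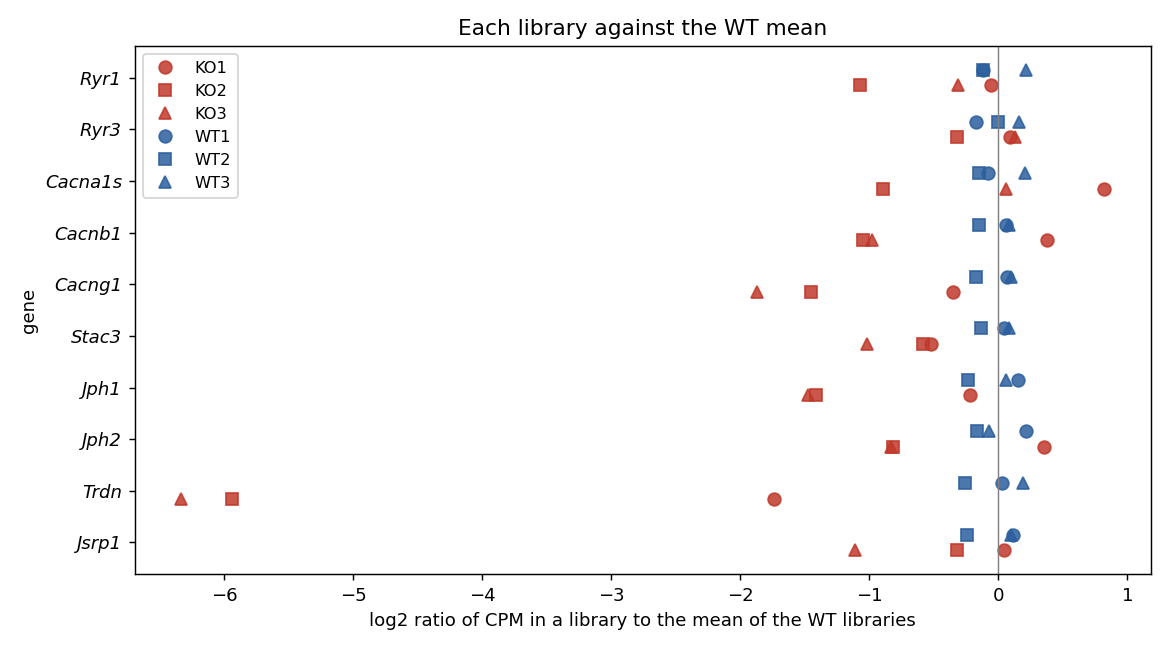
Log2 ratio of the CPM in each library to the mean of the 3 WT libraries (horizontal axis) for each triad gene; red symbols are KO and blue symbols WT libraries. The WT libraries lie near 0 for each gene, KO2 and KO3 lie to the left for most genes and by about 6 log2 units for *Trdn*, and KO1 is near or above 0 except for *Trdn*, *Stac3*, *Cacng1* and *Jph1*.

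Read by library in CPM, KO1 was the highest of the KO libraries for 9 of the 10 genes, the exception being *Ryr3*. KO1 was below the lowest WT library for 3 genes (*Cacng1*, *Stac3* and *Trdn*), KO2 for all 10 and KO3 for 8. KO1 was also above the highest WT library for 3 genes (*Cacna1s*, *Cacnb1* and *Jph2*), which was true of none of the 10 in KO2 or KO3. No share over all genes is given for single libraries, so these counts describe the members only. The median log2 ratio to the WT mean over the 10 genes came to −0.01 for KO1, −0.97 for KO2 and −0.999 for KO3. Summed over the 10 genes, the TPM was 554, 297 and 306 in KO and 726, 617 and 685 in WT. Groups did not overlap for 3 of 10 genes in CPM, where 21.6% of all tested genes had every KO library below every WT library. In TPM they did not overlap for 5, *Ryr1* and *Jph1* being the others, beside 23% of the genes tested in that measure, and KO3 was then above KO1 for *Ryr1* too.

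The levels of the 10 genes were also ranked per length. In WT the order in TPM was *Cacng1* (250 ± 18.0, SD, n = 3), *Jsrp1* (131 ± 15.8), *Trdn* (86.4 ± 9.89), *Cacnb1* (42.3 ± 2.65), *Cacna1s* (38.4 ± 3.14), *Jph2* (36.7 ± 5.71), *Stac3* (33.7 ± 2.42), *Jph1* (28.4 ± 3.66), *Ryr1* (22.2 ± 1.84) and *Ryr3* (6.66 ± 0.41). Neighbours from *Cacnb1* to *Jph1* overlapped in this order, and the other steps did not. In KO the highest means were again *Cacng1* (114 ± 54.9) and *Jsrp1* (98.3 ± 27.1) and the lowest *Ryr3* (6.57 ± 1.45), and *Trdn* (8.62 ± 12.7) was the ninth. With the wider spread in KO, the step from *Jsrp1* to *Cacna1s* was the one that did not overlap.

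Because members of a complex are compared within a library, their proportions do not depend on the scaling between libraries. *Jph2* made up 66.0%, 66.4% and 66.7% of the junctophilin TPM in KO and 57.2%, 57.6% and 54.2% in WT. The share was almost the same in the 3 KO libraries, although their junctophilin levels differed about 2-fold, and it was 10.02 points above WT (exact two-sided permutation test, p = 0.1, the smallest that 3 against 3 can give). Left-out libraries moved the difference between 8.93 and 10.7 points. The tested neighbours of *Jph2* had a median log2 fold change of 0.57 and those of *Jph1* of −0.21. The part of these regional differences in the *Jph2* share was not tested. *Ryr3* made up 24.8%, 34.0% and 28.3% of the ryanodine receptor TPM in KO and 22.9%, 24.2% and 22.2% in WT. The groups did not overlap, KO1 lay just above WT2, and the difference was 5.91 points (exact two-sided permutation test, p = 0.1) and 3.40 points without KO2.

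Further proportions were chosen after the values had been seen and are given with no test. The ratio of *Cacng1* to *Cacna1s* TPM was 2.85, 4.37 and 1.72 in KO and 7.18, 6.47 and 6.00 in WT. The ratio of *Cacna1s* to *Ryr1* was 3.21, 1.97 and 2.20 in KO and 1.79, 1.67 and 1.73 in WT. Against the pore-forming subunit there was thus less gamma subunit RNA in each KO library, including KO1, and against *Ryr1* there was more *Cacna1s*. The ratio of *Trdn* to *Ryr1* was 1.2, 0.136 and 0.0578 in KO and 4.35, 3.50 and 3.85 in WT. The ratio of *Trdn* to the calsequestrin gene *Casq2* was 0.0986, 0.0221 and 0.0143 in KO and 0.302, 0.336 and 0.317 in WT. *Stac3* made up 61.6%, 78.6% and 75.4% of the TPM of the STAC genes in KO and 83.3%, 86.0% and 88.0% in WT, where *Stac2* supplied nearly all the rest. None of these 5 proportions overlapped between the genotypes, whereas the ratios of *Cacnb1* and *Stac3* to *Cacna1s*, the ratio of *Jsrp1* to *Ryr1* and the *Cacnb1* share of the beta subunits did. Of all 14828 genes tested, 3201 had every KO library below and 3367 every KO library above WT in CPM. How often ratios of other genes fail to overlap was not measured, so the count describes these proportions only.

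**Figure D3:**
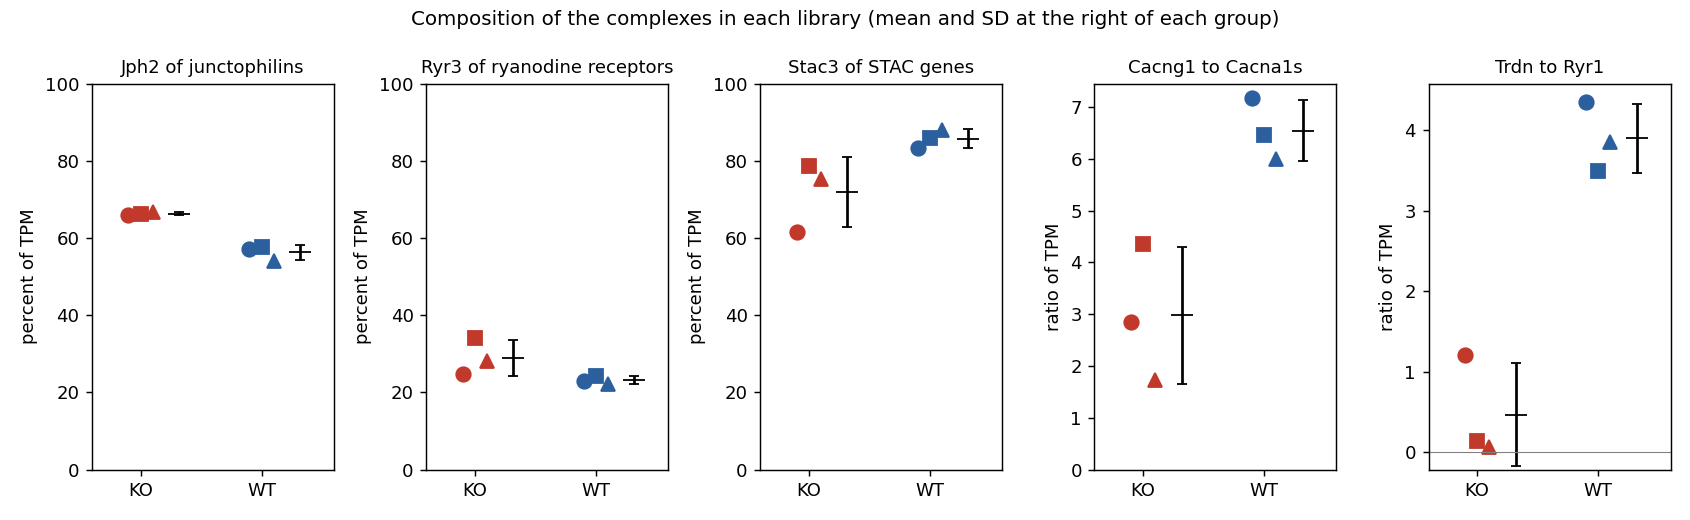
Percent of family TPM or ratio of TPM (vertical axes) in each KO (red) and WT (blue) library, with the mean and SD of each group of 3 in black. The *Jph2* share lies between 66.0% and 66.7% in KO and between 54.2% and 57.6% in WT, and the *Trdn* to *Ryr1* ratio reaches 1.2 in KO and is at least 3.50 in WT.

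The other genes of the triad and of the reticulum were read from a list of 35 partner genes, of which 26 were tested. Of these, 5 were called lower (*Asph*, *Hrc*, *Bin1*, *Srl* and *Atp2a1*), 1 higher (*Calm2*) and 20 did not pass the test, beside the 10.6% lower and 12.1% higher of all genes. The median log2 fold change of the 26 was −0.38, and −0.65 without KO1. Leaving out a library moved the count of lower genes from 1 (without WT1) to 12 (without KO1, beside 15.1% of all genes), with 2 without KO2, KO3 or WT3. The shares of all genes called lower in these fits were 3.05% without WT1, 8.29% without KO2, 6.13% without KO3 and 4.4% without WT3. In TPM, limma called 7 of the 26 lower and 1 higher, beside 11.9% and 8.59% of all genes. With a library left out, limma called 1 (without WT1) to 11 (without KO1) lower, beside 2.22% and 14.1% of all genes. The 9 genes not tested for low counts were *Ryr2*, *Cacna1c*, *Cacna1d*, *Cacnb4*, *Stac*, *Jph3*, *Jph4*, *Homer2* and *Sypl2*, with at most 15 counts in a library.

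*Asph*, whose gene also encodes junctin, the partner of triadin at the release channel, was at 78.4, 106 and 86.7 CPM in KO and at 155, 153 and 162 CPM in WT. It fell by 0.79 ± 0.14 on the log2 scale (SE; edgeR, adjusted p = 0.00945), with KO1 the lowest library, and kept its call under each of the 12 alternatives run on the counts. Junctin cannot be told apart from the hydroxylase encoded by the same gene in counts per gene. *Srl* (sarcalumenin, a luminal calcium-binding protein) fell by 1.40 ± 0.28 (SE; adjusted p = 0.0125, and 0.0613 without WT1), from 1850 CPM or more in WT to 1232 or less in KO. *Hrc*, a luminal histidine-rich calcium-binding protein, fell by 1.30 (adjusted p = 0.0488), *Bin1*, which shapes transverse tubules, by 1.04 (0.0397), and *Atp2a1*, the calcium pump of the reticulum, by 1.0 (0.0470). The call of *Hrc* was lost with a filter of at least 1 CPM in 3 libraries (0.0515) and that of *Atp2a1* with library totals (0.0503). The calls of *Hrc*, *Bin1* and *Atp2a1* were close to the threshold and were lost without KO2, KO3, WT1 or WT3, and that of *Bin1* also without WT2, with adjusted p up to 0.141 for *Hrc*, 0.142 for *Bin1* and 0.136 for *Atp2a1*.

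*Calm2* and *Calm3* encode calmodulin, which binds ryanodine receptors and calcium channels. *Calm2* was at 319, 461 and 395 CPM in KO and at 224, 250 and 207 CPM in WT, so that the KO libraries were all above the WT libraries. It rose by 0.79 ± 0.17 on the log2 scale (SE; edgeR, adjusted p = 0.0182), a call lost without WT1 (0.0925) and without WT3 (0.0886). *Calm3* was at 220, 400 and 264 CPM in KO and at 272, 260 and 275 CPM in WT, with a log2 fold change of 0.13. KO2 was the highest library for both genes.

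Calsequestrin, the calcium buffer bound by triadin, was read from *Casq2* at 986, 245 and 276 CPM in KO and at 1116, 810 and 1190 CPM in WT. KO1 lay within the WT range and KO2 and KO3 below it, and the log2 fold change of −1.05 ± 0.52 (SE) was not called (edgeR, adjusted p = 0.173), whereas without KO1 it was −2.0 (adjusted p = 0.000717). With any other library left out it lay between −1.21 and −0.72, not called (edgeR, adjusted p from 0.192 to 0.376). *Casq1*, the other isoform, was at 169, 11.1 and 13.9 CPM in KO and at 53.8, 29.7 and 84.4 CPM in WT, with KO1 above WT and KO2 and KO3 below it. Its log2 fold change was 0.20 (edgeR, adjusted p = 0.893) and turned to −2.17 without KO1 (adjusted p = 0.00549). With any other library left out it lay between −0.11 and 0.70, not called (edgeR, adjusted p from 0.593 to 0.951). Among the paralogs of the members with measurable levels, *Cacnb3* (52.1 to 71.8 CPM in KO, 63.3 to 84.5 in WT), *Cacnb2* (2.99 to 6.82 and 5.40 to 5.71) and *Stac2* (26.1 to 67.3 and 21.4 to 32.3) overlapped between the genotypes. *Cacng6* did not overlap, at 2.20 to 5.14 CPM in KO and 5.24 to 8.81 in WT, and its log2 fold change of −1.14 was not called (edgeR, adjusted p = 0.0617), whereas it was −1.62 without KO1 (adjusted p = 0.00540). With any other library left out it lay between −1.33 and −0.91, not called (edgeR, adjusted p from 0.0665 to 0.174). In TPM *Cacng6* was called lower, with a log2 difference of −0.75 (limma, adjusted p = 0.0263).

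**Figure D4:**
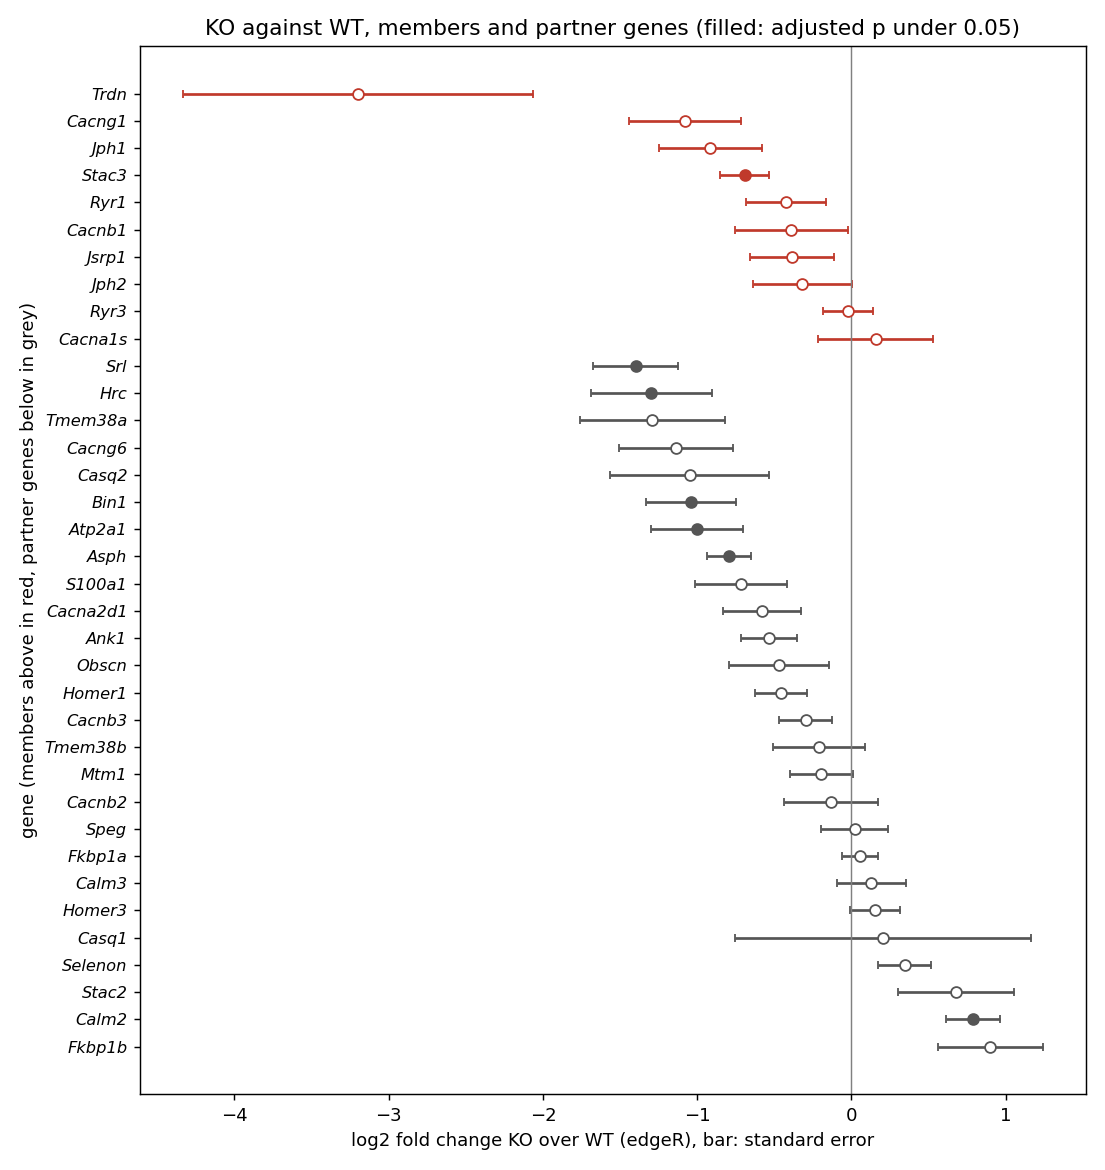
Log2 fold change of KO over WT (horizontal axis) from edgeR for the 10 triad genes (red) and the 26 tested partner genes (grey). Bars are the standard error derived from the test statistic, and filled symbols passed the adjusted p threshold. *Stac3* is the filled triad gene at −0.69, *Trdn* is the leftmost with the widest error, and *Fkbp1b* is the rightmost at 0.90, not filled.

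Markers of the cells such a culture can hold were read beside these results. In whole cultures, fewer cells of a type and less RNA per cell cannot be told apart. Of 12 genes of differentiating muscle, 1 was lower (*Mef2c*) and 1 higher (*Myod1*) in KO, beside 10.6% and 12.1% of all genes, and the log2 fold changes of the list had a median of −0.12. Without KO1 they came to 7 lower and 1 higher, beside 15.1% and 15.5% of all genes, and the median to −0.72. Their summed TPM was 8919, 4308 and 4152 in KO and 7770, 6323 and 7037 in WT. KO1 was thus above and KO2 and KO3 were below all WT libraries. *Mef2c*, a transcription factor of muscle genes, was at 17.1, 2.33 and 1.17 CPM in KO and at 80.7, 162 and 189 CPM in WT. *Myog*, the factor that opens terminal differentiation, was at 1708, 1530 and 1004 CPM in KO and at 1463, 1354 and 1243 CPM in WT, with a log2 fold change of 0.06. Of 10 genes of undifferentiated or reserve myoblasts, 5 were higher (*Pax7*, *Hes1*, *Id1*, *Cd34* and *Sdc4*) and 2 lower (*Myf5* and *Spry1*), beside 12.1% higher and 10.6% lower of all genes. The summed TPM of this list was 104, 164 and 134 in KO and 66.0, 76.7 and 62.7 in WT. *Sdc4* lies near *Jph2* on chromosome 2, and the 88 tested genes around it had a median log2 fold change of 0.54, beside 0.92 for *Sdc4*. The part of this regional difference in the level of *Sdc4* was not tested.

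Of 9 fibroblast or adipogenic markers, 5 were tested and 3 were higher in KO (*Pdgfra*, *Ly6a* and *Cebpa*), where 12.1% of all genes were higher and 10.6% lower, as for the other lists here. Their summed TPM was 80.5, 79.3 and 42.8 in KO and 18.7, 15.2 and 19.2 in WT. *Ly6a* carried most of the difference, and without it the sum was 36.0, 11.5 and 10.9 in KO and 11.8, 7.95 and 11.6 in WT, so that KO1 alone lay above WT, with *Dcn* at 30.0 TPM there. The defining fat cell genes *Adipoq*, *Fabp4* and *Plin1* had at most 3 counts in each library. Of 8 cardiac markers, 5 were tested and 1 was lower (*Gata4*), with a summed TPM of 246, 70.1 and 89.3 in KO and 324, 238 and 322 in WT, of which *Casq2* made up most. The atrial genes *Nppa* and *Myl7* had at most 3 counts in each library. Of 6 neuron markers, 4 were tested, 2 were higher (*Tubb3* and *Stmn2*) and 1 lower (*Syt1*), with a summed TPM of 12.7, 26.6 and 19.6 in KO and 5.48, 8.37 and 7.19 in WT, and *Rbfox3* and *Snap25* had at most 3 counts in each library. Of the 16 marker calls over these lists, those of *Ly6a*, *Gata4* and *Tubb3* held whichever library was left out, and 13 were lost without at least 1 library, 12 of them without WT1 and 12 without WT3, with adjusted p up to 0.137 (edgeR). The part of these markers in the levels of the triad genes was not tested.

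The 10 genes did not share one profile across the 6 libraries. Pearson's r with the mean profile of all 10, which includes the gene itself, was 0.97 for *Cacnb1* and *Jph1*, 0.95 for *Trdn*, 0.94 for *Cacng1* and 0.93 for *Jph2*, whereas it was 0.87 for *Ryr1*, 0.78 for *Jsrp1*, 0.77 for *Stac3*, 0.67 for *Cacna1s* and 0.43 for *Ryr3*. Among 8849 other genes whose mean log2 CPM was 3 or more, the 5 most alike in profile were *Atg9a* (r = 0.998), *Scly* (0.997), *Hoxc11* (0.997), *Npnt* (0.996) and *Erbb3* (0.996). All 5 were low in KO2 and KO3 and near the WT level in KO1, as *Npnt* was at 387, 117 and 144 CPM in KO and 415, 346 and 497 CPM in WT. These correlations are descriptions over 6 libraries, 3 of each genotype, so that the points are not independent of genotype, and none of the 5 genes was called different between the genotypes by edgeR.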

How the data were processed

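Ribosomal RNA was removed from total RNA of 3 KO and 3 WT cultures before sequencing. The authors used STAR for alignment and deposited the raw counts per gene, without normalization. The submitters' processing notes also name Trim Galore, FastQC, featureCounts, StringTie and Salmon. The authors deposited TPM and FPKM values for each library, made by StringTie with a correction for transcript length. The counter's strand setting and the annotation release are not given in the sources used here. The methods name GRCm39 and the labels mm9, whereas the deposited coordinates fit GRCm38, on which positions are given. All columns of samples were used, and 0 were left unused. TPM rows that share a gene identifier were summed.

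Counts were scaled by TMM (factors from 0.949 to 1.08), filtered with filterByExpr and tested with edgeR's two-sided quasi-likelihood test over 14828 genes with genotype as the only term; p-values were adjusted by Benjamini-Hochberg and called under 0.05. For TPM, limma was run on log2(TPM + 1) after a filter of 1 TPM in 3 libraries. DESeq2, other scalings, filters and pseudocounts, and leaving out each library were alternatives. Every adjusted p comes from edgeR, limma or DESeq2 fitted across all genes. The SE beside edgeR values is the size of the log2 fold change divided by the square root of the test's F statistic. It therefore restates the test and is no separate measure of spread. Shares were compared with exact two-sided permutation tests. The work used edgeR 4.0.16, DESeq2 1.42.0 and limma 3.58.1 in R 4.3.3. Depth is far above a counting limit for each member, and with 3 libraries a genotype the spread between libraries sets the precision.

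All 10 members were named, with every partner gene called by edgeR, the measurable paralogs of members and the 5 genes most alike in profile among those with a mean log2 CPM of 3 or more. Further partner genes and markers were named after their values were seen. The members and the lists were chosen with earlier results of these data known. In the count table *Mymk*, *Mymx* and *Selenon* were matched by identifier. 1 gene of the partner list is not reported here, and the partner counts leave it out. Splicing was not analysed here.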

Additional observations from a re-analysis of the deposited data

How the results depend on the processing

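The count of triad genes called lower in KO, 1 in the edgeR fit reported, was 3 with DESeq2 and 4 with no filter on low counts (*Cacng1*, *Stac3*, *Jph1* and *Trdn*, beside 7.33% of all 30252 genes then tested), and it ranged from 0 (without WT1 or WT3) to 6 (without KO1) when single libraries were left out. With the filter off, 11 partner genes were called lower and 3 higher (7.33% and 7.67% of all genes in that fit), beside 5 and 1. DESeq2 called 7 partner genes lower and 2 higher, beside 11.7% and 12.3% of the genes it tested. Leaving out single libraries gave 1 to 12 lower and 0 to 2 higher partner genes with edgeR, where 2.96% (without WT1) to 15.5% (without KO1) of all genes were higher. The 0 came without WT1 and without WT3 (4.03% of all genes), where 1 and 2 were higher at an unadjusted p under 0.05. In TPM, 1 triad gene was called lower with no filter, and 0 (without WT1) to 6 (without KO1) with a library left out, beside 4 reported. The share of all genes called lower in these TPM fits was 2.36% with no filter, 2.22% without WT1 and 14.1% without KO1. The cause of these differences was not tested. The sign of *Ryr3* turned to 0.0912 with library totals and lay between −0.11 and 0.11 over left-out libraries, and between −0.17 and 0.10 in TPM. *Cacna1s* lay between −0.35 and 0.49, and between −0.33 and 0.46 in TPM. The median of the triad genes stayed below 0 in all 12 alternatives (−0.81 to −0.30), and both shares stayed higher in KO.

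With the replicate number as a block (replicate block), edgeR called 4 triad genes lower (*Cacng1*, *Stac3*, *Jph1* and *Trdn*), beside 8.17% of all genes lower in the same fit, and *Atp2a1* lost its call (adjusted p = 0.0606). Libraries with the same number did not deviate together (r = 0.14, −0.12 and 0.004), so the number does not pair them. Scaling by library totals moved the median of all genes by 0.12 on the log2 scale, and 33.8% of all calls were then lower in KO, beside 46.6%. Depth did not limit the members, which had at least 300 reads in each library, but it did limit paralogs with few reads.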
